A study of Saccharomyces cerevisiae with 37 samples.

Results

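The comparison described here set the decline of each transcript in yeast treated with hydrogen peroxide against its decline in untreated yeast. Cells of Saccharomyces cerevisiae strain Y262, whose RNA polymerase II is temperature-sensitive, were grown in YPD at 26 °C. In the oxidative stress culture 0.3 mM H2O2 was added 25 min before time 0, and 2 reference cultures (reference 1 and reference 2) had no added stress. A DNA damage culture, treated with 0.1% MMS for 40 min before time 0, served as a second stressed culture. The 2 pretreatment times were read in the order in which the labels name the stresses. At time 0 medium at 49 °C brought every culture to 37 °C to stop transcription, so all cultures, the references included, were also heat-shifted and diluted. RNA was measured on Affymetrix Yeast Genome 2.0 arrays at 0, 5, 10, 15, 20 and 30 min, with 2 technical arrays at time 0. Over these times the oxidative stress and reference cultures contributed 21 of the 37 arrays of the series, and arrays at later times were not used. Of the 5449 genes on the array 3898 were tested. The other 1551 genes had a mean level under the 30th percentile.

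Messenger RNA in yeast is mostly degraded after its poly(A) tail has been shortened, by removal of the cap and digestion from the 5′ end, and to a lesser degree by the exosome from the 3′ end. Once new synthesis is stopped, the slope of a transcript's level on time measures how fast it is lost, provided that the stop is complete. Hydrogen peroxide activates the transcription factor Yap1, which controls genes of thioredoxin and glutathione metabolism, and it damages iron-sulfur clusters, cofactors of enzymes in respiration and in amino acid synthesis. The cDNA was primed from poly(A) tails, so a shortened tail may lower the signal of an RNA that is still present.

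Slopes were fitted on log2 values over 0 to 30 min, are given in log2 per 10 min, and were centred on the median gene of each culture, so a negative slope means a faster decline than the median gene. Before centring, the median gene had a slope of -0.29 in the oxidative stress culture, against -0.40 in reference 1 and -0.30 in reference 2, which correspond to half-lives of 34.6, 25.3 and 33.3 min. The 2 references thus differed from each other by more in this overall rate than the oxidative stress culture differed from reference 2, and no statement is made about overall decay. Between the 2 technical arrays at time 0 the median gene differed by 0.36 log2 in the oxidative stress culture, 0.46 in reference 1 and -0.13 in reference 2 (second minus first). Half-lives are on the deposited scale and carry such differences between arrays, which centring removes from the slopes. Bacterial spike-in controls (36 probe sets) had median slopes of -0.11 in the oxidative stress culture and -0.12 in each reference. The probe set for 5.8S ribosomal RNA, given relative to the array median, averaged -1.56 (range -1.98 to -1.30) over the arrays of the oxidative stress culture, against 0.73 (0.44 to 0.95) in reference 1 and 0.37 (0.06 to 0.95) in reference 2, with no overlap. The part of this difference in the slopes was not tested.

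Each stress was 1 culture, so the main test, limma on 1 slope per culture, had 1 residual degree of freedom. It called 0 of 3898 genes (0% called) at a Benjamini-Hochberg adjusted p under 0.05, with a lowest adjusted p of 0.0998. At an unadjusted p under 0.05 there were 310 genes, of which 217 were lower and 93 higher after oxidative stress. Genes are therefore described by size: a gene is called steeper, or shallower, where its slope lay at least 0.2 below, or above, that in each of the 2 references. A second limma fit used the scatter of arrays around each culture's line as the error, which measures how well a line was determined and not how cultures vary. Against the mean of the references it called 270 genes lower (6.93%) and 164 higher (4.21%) after oxidative stress. It called 209 lower (5.36%) and 95 higher (2.44%) against reference 1, and 242 lower (6.21%) and 173 higher (4.44%) against reference 2. Between reference 1 and reference 2 it called 19 lower (0.487%) and 38 higher (0.975%). By size, however, the 2 references differed by 0.2 or more in 439 genes, or 11.3%.

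After peroxide 181 genes (4.64%) were steeper and 68 (1.74%) shallower than in both references. A weak signal may not show the decline of its transcript, so a cut, called the floor, was set at the 30th percentile of levels at time 0. It was 11.8 in the oxidative stress culture, 11.6 in reference 1 and 11.5 in reference 2. The floor is not the bottom of the range, since deposited values went down to 3.69, and signals under it could still fall. Of the 3511 genes above the floor in all 3 cultures, 142 (4.04%) were steeper and 51 (1.45%) shallower. Array scatter alone called 117 of these 142 and 33 of these 51. Of 223 genes that were at the floor in a reference but above it after peroxide, 39 (17.5%) were steeper and 3 (1.35%) shallower. Of 106 genes at the floor both after peroxide and in a reference, 0 were steeper and 10 shallower, and of 58 at the floor after peroxide alone, 0 were steeper and 4 shallower. Genes were chosen for testing by their mean level, so a gene low in a reference could enter because it was high after peroxide. A gene at the floor at time 0 could enter because its level increased later. The shares among genes at the floor thus depend in part on this filter, and how far was not tested. ERG3, with differences of 0.25 and 0.20 from references 1 and 2, lay just inside the size rule, and NOP56, with -0.20 and -0.29 and the nearer value short of the limit before rounding, lay just outside.

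**Figure D1:**
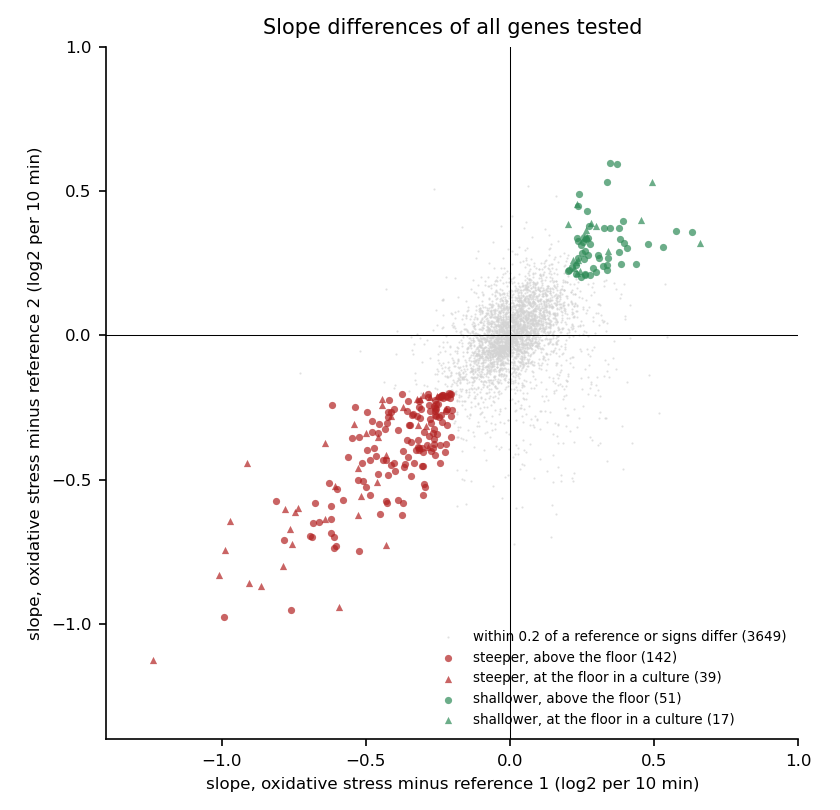
Slope differences of all 3898 genes tested, oxidative stress minus reference 1 on the horizontal axis and oxidative stress minus reference 2 on the vertical axis, both in log2 per 10 min. Coloured points are the 181 steeper and 68 shallower genes, with triangles for genes at the floor at time 0 in at least 1 culture, which include SRX1 at the far lower left.

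Among genes above the floor, the 142 steeper ones had slopes close to the median gene in untreated cells. Their median centred slope was -0.36 after oxidative stress, against 0.04 in each reference. Their median rank among all slopes was percentile 9.61 after oxidative stress, against 58.1 in reference 1 and 61.5 in reference 2. On the deposited scale 119 of the 142 declined in all 3 cultures, and those had a median half-life of 14.7 min after oxidative stress, against 23.7 min in reference 1 and 32.4 min in reference 2. For all 3288 genes above the floor that declined in the 3 cultures the medians were 31.9 min after oxidative stress, against 23.8 min in reference 1 and 31.5 min in reference 2. Another 17 of the 142 had a positive slope in both references, so their difference was a smaller increase or a loss set against an increase.

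The steepest gene above the floor was ATR1, which encodes a membrane transporter of the multidrug-resistance type. Its level relative to the median gene was 1.81, 1.62, 0.76, -0.25, -0.70 and -1.17 on the log2 scale at 0, 5, 10, 15, 20 and 30 min after oxidative stress. At the same times it was -0.96, -0.99, -1.14, -1.31, -1.16 and -1.27 in reference 1, and -0.49, -0.53, -0.56, -0.87, -0.86 and -0.81 in reference 2. The transcript thus began well above both references and lay within their range of levels at 30 min. Its slope was -1.14 after oxidative stress, against -0.15 in reference 1 and -0.17 in reference 2, which gives a difference of -0.99 ± 0.07 (SE) from their mean (limma on cultures, adjusted p = 0.0998). Its half-life on the deposited scale was 6.97 min after oxidative stress, against 18.3 and 21.4 min in references 1 and 2.

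A group of iron-sulfur genes stood among the leading 15. ISU2, a scaffold on which clusters are built in mitochondria, was at 2.96, 2.75, 2.29, 1.87, 1.49 and 0.67 relative to the median gene over the 6 times after oxidative stress, against 0.10, -0.10, -0.44, -0.47, -0.49 and -0.38 in reference 1 and 0.01, -0.55, -0.81, -0.68, -0.57 and -0.32 in reference 2. It was still above both references at 30 min, unlike ATR1, and its decline was close to a straight line (SE of the line 0.03). Its half-life was 9.02 min after oxidative stress, against 16.6 min in reference 1 and 26.1 min in reference 2. NBP35, a scaffold of the cytosolic pathway, had a slope of -0.47 after oxidative stress, against 0.15 and 0.17 in references 1 and 2. DRE2, which passes electrons to that pathway, had -0.58 after oxidative stress, against 0.04 and 0.11. IBA57, needed for 4Fe-4S clusters in mitochondria, had -0.51 after oxidative stress, against 0.18 and 0.18. For these 4 genes limma on cultures gave adjusted p values from 0.109 for NBP35 and IBA57 to 0.127 for ISU2, and the fit on arrays gave adjusted p values of at most 2.7e-05.

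A list of 28 iron-sulfur cluster assembly genes was written after these values had been seen and is given as a description. Of its members 10 (35.7%) were steeper and 0 shallower, against 4.64% and 1.74% of all genes, and 9 of the 10 were above the floor in all 3 cultures. The other members past the rule were TAH18, NFU1, ISA2, NAR1 and CFD1, with LTO1 at the floor in the references. TAH18, the reductase partner of Dre2, had differences of -0.45 from reference 1 and -0.62 from reference 2. CFD1, which forms a complex with Nbp35, had -0.32 and -0.40. The list's median difference was -0.14 from reference 1 and -0.22 from reference 2, against medians of 0.00 over all genes. Its members also stood higher before the shift, by a median of 0.58 log2 against reference 1 and 0.56 against reference 2.

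In the iron regulon list, which holds ISU2 as well as genes of iron transport and storage, 6 of 26 members tested (23.1%) were steeper and 1 (3.85%), ATX1, shallower, against 4.64% and 1.74% of all genes. ISU2 is 1 of the 6, and 5 of them were above the floor in all 3 cultures. CCC1, which moves iron into the vacuole, had a slope of -0.75 after oxidative stress, against -0.14 in reference 1 and -0.05 in reference 2, with a half-life of 9.62 min against 18.7 and 28.4 min. Its level was 1.93 relative to the median gene at time 0 and 0.06 at 30 min after oxidative stress, close to the -0.10 and 0.05 of references 1 and 2 at 30 min. MRS4, a mitochondrial iron carrier chosen for mention after its values were seen, had differences of -0.48 and -0.34. Over the whole list the median differences were small, -0.05 and -0.06.

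Among antioxidant genes 12 of 45 tested (26.7%) were steeper and 1 (2.22%), TRX3, shallower, against 4.64% and 1.74% of all genes. Of the 12, 7 were among the 36 members above the floor in all 3 cultures, and the others, SRX1, OYE3, CTA1 and CTT1 among them, were at the floor in a reference. GSH1, which carries out the first step of glutathione synthesis, had a slope of -0.53 after oxidative stress, against 0.07 in reference 1 and 0.20 in reference 2 (difference from their mean -0.67 ± 0.09 SE, adjusted p = 0.127 by limma on cultures). YAP1, which encodes the peroxide-responsive transcription factor itself, had -0.42 after oxidative stress, against 0.01 and 0.16. Its half-life was 14.1 min after oxidative stress, against 25.7 and 72.3 min in references 1 and 2. In reference 2, however, the deposited level of YAP1 fell from 13.1 at time 0 to 11.9 at 10 min and stood at 12.3 at 30 min. That of GSH1 fell from 13.2 to 11.6 and stood at 12.5 at the same times. The reference 2 values of both genes thus include a later increase, and 72.3 min is no measure of decay. Other members had slopes close to the references. TSA1, the abundant peroxiredoxin, had slopes of 0.01 after oxidative stress, -0.01 in reference 1 and 0.03 in reference 2. TRX2, a cytosolic thioredoxin, had 0.01 after oxidative stress, against 0.05 and 0.09. Both were bright transcripts, with deposited levels of 16.9 for TSA1 and 16.6 for TRX2 at time 0 after oxidative stress, where the highest value was 17.5. Whether signals near the top of the range understate differences was not tested. Before the shift TSA1 was at 1.06-fold and 0.997-fold, and TRX2 at 1.29-fold and 1.45-fold, of its level in references 1 and 2.

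The other leading steep genes had varied functions. RPM2, the protein subunit of mitochondrial RNase P, had a slope of -0.84 after oxidative stress, against -0.08 and 0.11 in references 1 and 2, and most of its decline came within the first 10 min, when its relative level was 1.51, 0.66 and -0.33 at 0, 5 and 10 min. AIF1, a mitochondrial protein of the apoptosis-inducing factor family, had -0.54 after oxidative stress, against 0.15 and 0.16. GPT2, an acyltransferase of lipid synthesis, had -0.42, against 0.26 and 0.23. Its deposited level in reference 1 rose from 12.3 at time 0 to 12.7 at 5 min, so its difference from reference 1 includes an increase. In reference 2 it was 12.3 at both times. RIB1, the first enzyme of riboflavin synthesis, had -0.66, against 0.00 and -0.01. OCH1, a mannosyltransferase of the Golgi, had -0.59, against 0.09 and -0.01. NIT1, a nitrilase, had -0.69, against 0.13 and -0.11. YGL114W and YOL029C, listed by locus, had differences of -0.78 and -0.71, and of -0.62 and -0.59, from references 1 and 2. Over the 15 leading genes the half-life ran from 6.97 to 14.7 min after oxidative stress, against 16.6 to 76.6 min in reference 1 and 21.4 to 145.1 min in reference 2. The adjusted p of limma on cultures ran from 0.0998 to 0.197, and that of the fit on arrays reached at most 0.00048. All 15 stood higher before the shift after peroxide, by 1.54 to 2.86 log2 against reference 1.

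**Figure D2:**
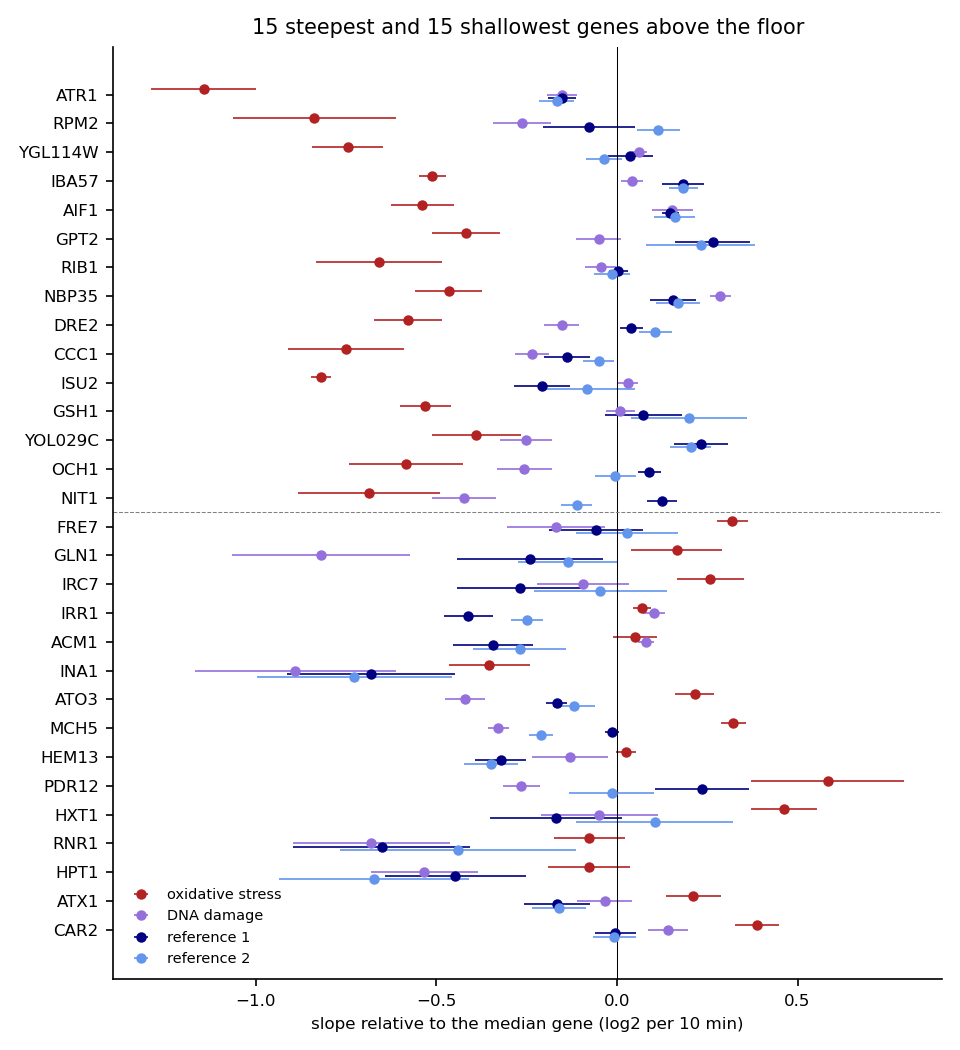
Centred slopes, in log2 per 10 min, of the 15 steepest (upper block) and 15 shallowest (lower block) genes above the floor in the oxidative stress, DNA damage and reference cultures. Points are the fitted slopes and bars the standard error of each line over 6 time points. The oxidative stress point lies outside both reference points in every gene shown because the genes were chosen that way.

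Of 64 amino acid synthesis genes tested, 11 (17.2%) were steeper, all above the floor, and 1 (1.56%), GLN1, shallower, against 4.64% and 1.74% of all genes. Over all 64 members the median level at time 0 differed by -0.04 and -0.08 log2 from references 1 and 2, but the leading steep members began higher, ARG4 by 1.00 and 0.42, ARG3 by 0.75 and 0.70, and ARG1 by 0.59 and 0.38 log2. ARG4, the last enzyme of arginine synthesis, was at 2.43, 2.16, 1.53, 1.16, 1.01 and 1.20 relative to the median gene over the 6 times after oxidative stress, against 1.43, 1.52, 1.56, 1.63, 1.66 and 1.67 in reference 1 and 2.02, 2.09, 2.29, 2.45, 2.32 and 2.09 in reference 2. It thus lay below both references from 10 min on. Its half-life was 12.8 min after oxidative stress, against 27.6 and 34.3 min in references 1 and 2 (adjusted p = 0.127 by limma on cultures). ARG3, ornithine carbamoyltransferase, had differences of -0.39 and -0.57, and ARG1, argininosuccinate synthase, had -0.37 and -0.58. The histidine genes HIS1 and HIS7, chosen for mention after their values were seen, were steeper too. HIS1 had differences of -0.30 and -0.45, with a level at time 0 that differed by -0.14 and -0.19 log2. HIS7 had differences of -0.30 and -0.41, with a level that differed by -0.05 and -0.39 log2.

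In the sulfur and methionine list 5 of 28 (17.9%) were steeper, against 4.64% of all genes, and 0 shallower. Of its 24 members above the floor 3 were steeper. MUP1, the methionine permease, had differences of -0.43 and -0.58 from references 1 and 2, and STR2, an enzyme of the route between cysteine and homocysteine, had -0.39 and -0.33. The relative level of MUP1 was 0.84 at time 0, -0.27 at 10 min and 0.74 at 30 min after oxidative stress. From time 0 to 30 min it increased from -0.46 to 0.75 in reference 1 and from -0.38 to 0.82 in reference 2. The difference for MUP1 thus includes an increase in the references and is no measure of decay. Of the 3 aryl-alcohol dehydrogenases tested 2 were steeper. AAD4 had -0.38 after oxidative stress, against 0.25 and 0.13, but its probe set also matches another gene, so the source of the signal is uncertain.

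General stress genes were steeper in another sense. Of 59 tested, 16 (27.1%) were steeper and 2 (3.39%) shallower, against 4.64% and 1.74% of all genes. Of the 43 above the floor 10 were steeper and 0 shallower, and the fit on arrays called 4 of the 59 lower. Several of them increased after the shift to 37 °C in all cultures. HSP12, a membrane-protecting stress protein, was at 1.12, 2.60, 3.33, 3.50, 3.59 and 3.71 relative to the median gene over the 6 times after oxidative stress, against 0.01, 1.87, 2.98, 3.32, 3.46 and 3.69 in reference 1 and -0.31, 1.71, 3.29, 3.66, 3.71 and 3.75 in reference 2. The 3 cultures ended between 3.69 and 3.75, and they differed mainly at time 0. CTT1, the cytosolic catalase, was at the floor in the references and had a slope of 0.44 after oxidative stress, against 1.18 and 1.05 in references 1 and 2. Its relative level was 1.06 at time 0 and 2.66 at 30 min after oxidative stress, against -1.90 and 1.75 in reference 1 and -1.96 and 1.23 in reference 2. Such genes give a smaller increase after peroxide and no measure of decay. GRE2, a reductase, did decline relative to the median gene, with 3.28 at time 0 and 2.59 at 30 min after oxidative stress, against 0.52 and 1.21 in reference 1 and 0.18 and 0.53 in reference 2.

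Genes at the floor in a reference included the largest difference among all genes tested. SRX1, sulfiredoxin, which repairs oxidised peroxiredoxins, was at 3.29, 3.21, 2.76, 2.17, 1.23 and -0.34 relative to the median gene over the 6 times after oxidative stress, against -2.38, -2.41, -2.55, -2.51, -2.41 and -2.45 in reference 1 and -1.92, -2.04, -2.49, -2.42, -2.29 and -2.39 in reference 2. Before the shift it was 50.8-fold and 37.0-fold higher than in references 1 and 2. It was high in the DNA damage culture too, at 2.66 relative to the median gene at time 0, so its level does not tell the 2 stresses apart. Its half-life after oxidative stress was 6.30 min. The reference lines lay 0.89 and 0.59 log2 below the floor at time 0, and their centred slopes were -0.06 and -0.17. On the deposited scale these signals still fell from time 0 to 30 min, from 10.7 to 9.40 in reference 1 and from 10.9 to 9.42 in reference 2. How much of such a weak signal came from SRX1 was not tested, so these slopes are not read as decay rates. The difference of -1.18 ± 0.08 (SE, adjusted p = 0.0998 by limma on cultures) thus compares a decline with weak reference signals. In the DNA damage culture, where SRX1 started high, its relative level was 2.66, 2.73, 2.68, 2.53, 2.42 and 2.38 over the 6 times, with a slope of -0.13. OYE3, an NADPH oxidoreductase, stayed near its starting level until 10 min and then declined, with 2.61, 2.79, 2.60, 2.24, 1.62 and -0.16 over the 6 times after oxidative stress. Its half-life was 7.91 min in that culture. CTA1, the peroxisomal catalase, had a slope of -0.54 after oxidative stress, against 0.46 and 0.29. FMP23, a mitochondrial protein, had a half-life of 8.05 min after oxidative stress, and YHK8, a presumed drug transporter, had 9.53 min. DDR2, a stress gene, lay between 2.56 and 2.92 throughout after oxidative stress, against -2.01 at time 0 and 1.37 at 30 min in reference 1, and -1.19 at time 0, 2.43 at 15 min and 1.48 at 30 min in reference 2.

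**Figure D3:**
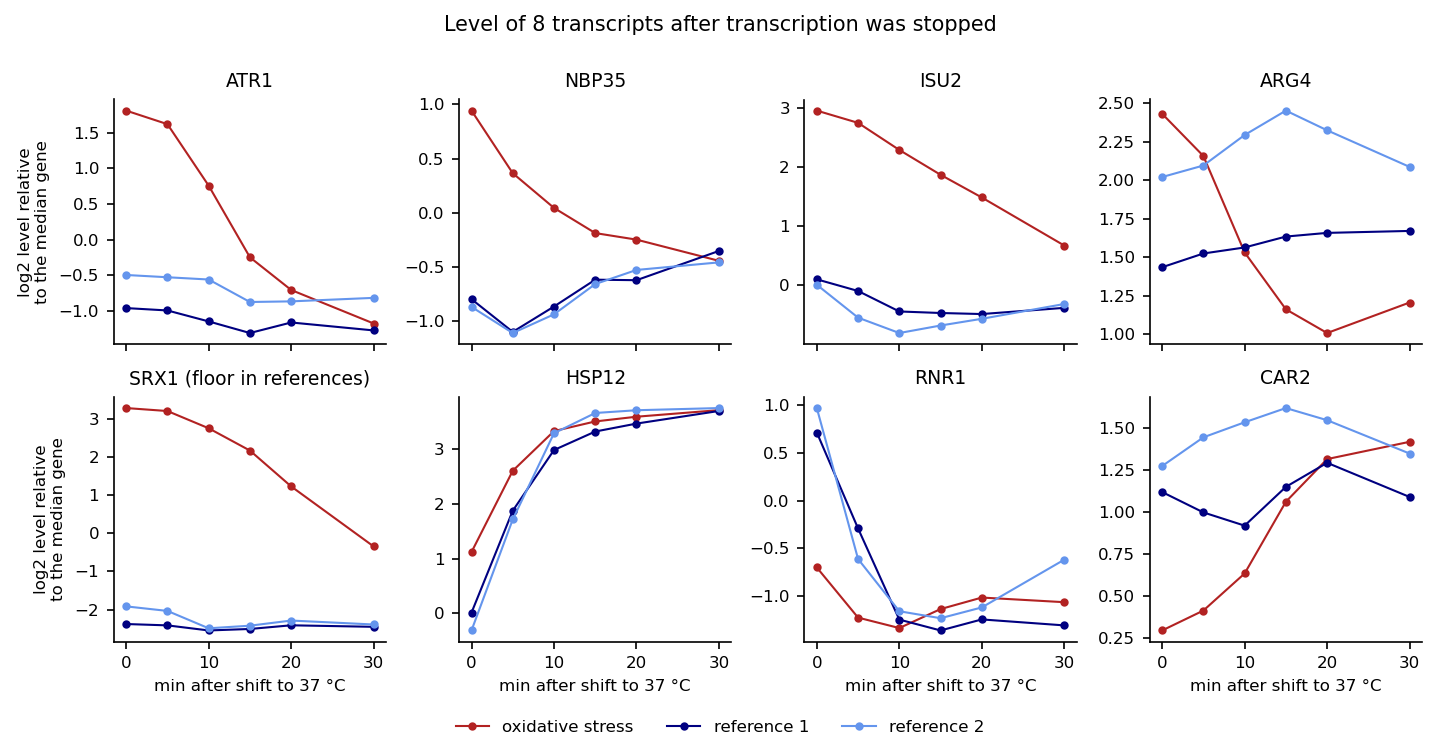
Levels of 8 transcripts relative to the median gene (log2) against min after the shift to 37 °C in the oxidative stress culture and the 2 reference cultures, 1 array per point and the mean of 2 at time 0. ATR1, NBP35, ISU2, ARG4 and SRX1 decline after oxidative stress while the references stay nearer to level, HSP12 increases in all 3 cultures, and both CAR2 and RNR1 start lower after oxidative stress.

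The 51 shallower genes above the floor formed a more mixed set. Their median centred slope was 0.15 after oxidative stress, against -0.16 in reference 1 and -0.13 in reference 2. In 37 of them the deposited level declined in all 3 cultures, with a median half-life of 50.6 min after oxidative stress, against 16.1 min and 20.2 min in references 1 and 2. In the other 14 the deposited level had a positive slope after oxidative stress, which a decay rate alone does not give.

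The shallowest gene by the nearer reference was CAR2, ornithine aminotransferase of arginine breakdown. It was at 0.29, 0.41, 0.63, 1.06, 1.31 and 1.42 relative to the median gene over the 6 times after oxidative stress, against 1.12, 1.00, 0.92, 1.15, 1.29 and 1.09 in reference 1 and 1.27, 1.44, 1.53, 1.62, 1.55 and 1.35 in reference 2. It started lower after peroxide and ended slightly above both references (difference from their mean slope 0.39 ± 0.07 SE, adjusted p = 0.220 by limma on cultures). ATX1, a copper chaperone, had a slope of 0.21 after oxidative stress, against -0.17 and -0.16, with a half-life of 129.4 min against 17.8 and 21.7 min. Its level at time 0 differed by -0.36 and -0.58 log2 from references 1 and 2.

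The DNA synthesis gene RNR1, which encodes a ribonucleotide reductase subunit, was at -0.70, -1.23, -1.34, -1.14, -1.02 and -1.07 over the 6 times after oxidative stress, against 0.72, -0.29, -1.25, -1.36, -1.25 and -1.31 in reference 1 and 0.97, -0.61, -1.16, -1.23, -1.12 and -0.62 in reference 2. All 3 cultures stood between -1.34 and -1.16 at 10 min, from a lower start after peroxide. HPT1, of purine salvage, had slopes of -0.08 after oxidative stress, against -0.45 and -0.67. HEM13, an enzyme of haem synthesis, had 0.02, against -0.32 and -0.35, and IRR1, a cohesin subunit, 0.07, against -0.41 and -0.25. MCH5, a riboflavin transporter, had 0.32, against -0.01 and -0.21. ATO3, a transporter linked to ammonium export, had 0.21, against -0.17 and -0.12. For HXT1, a low-affinity glucose transporter, the slope was 0.46 after oxidative stress, against -0.17 and 0.11, with an increase in its relative level from 20 min in all 3 cultures. PDR12, a weak-acid exporter, INA1, ACM1, an inhibitor of the anaphase-promoting complex, IRC7, GLN1, glutamine synthetase, and FRE7, a reductase of the plasma membrane, completed the leading 15, whose adjusted p by limma on cultures ran from 0.220 to 0.394. The fit on arrays called 9 of the 15. All 15 stood lower before the shift after peroxide, with differences of -1.65 to -0.36 log2 from reference 1.

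At the floor, the leading shallower genes were PUT4, FMP45, HBT1, MPC3, YHR140W and ARO9. Each had a positive centred slope in all 3 cultures. PUT4, the proline permease, was at -2.80 at time 0 and 0.76 at 30 min after oxidative stress, against -2.13 and 0.07 in reference 1 and -2.15 and -0.28 in reference 2. These are differences in an increase from the floor, and no decay was measured.

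In the remaining lists the shares are read against 4.64% steeper and 1.74% shallower over all genes, and in small lists they rest on 1 or 2 genes. Of 127 cytosolic ribosomal protein genes 6 (4.72%) were steeper, near the share of all genes, with differences of -0.28 and -0.29 for RPL16A. In the mitochondrial ribosomal protein list 0 of 64 were past the rule in either direction, and the same held for 36 proteasome genes, 39 of oxidative phosphorylation, 40 translation factors, 10 histones, 11 cell cycle regulators and 15 of autophagy. The fit on arrays called 17 of the 127 cytosolic ribosomal protein genes lower and 0 higher, against 6.93% and 4.21% of all genes. It called 8 of the 36 proteasome genes lower and 0 higher, and 2 of the 64 mitochondrial ribosomal protein genes lower and 4 higher. Median differences from references 1 and 2 were small, -0.04 and -0.06 for cytosolic ribosomal proteins and -0.04 and -0.07 for the proteasome. Of 39 chaperones 1 (2.56%) was steeper, of 54 mRNA decay genes 1 (1.85%), CAF130 of the deadenylase complex, and of 51 Puf3-bound mitochondrial genes 2 (3.92%), with 1 shallower. The DNA damage list had 2 steeper (10.5%) and 1 shallower (5.26%) of 19, RNA polymerase I and III 1 steeper (5.56%) of 18, and ergosterol synthesis 1 steeper (3.57%) and 2 shallower (7.14%) of 28. Glycolysis and fermentation had 1 shallower (4.76%), PFK2, of 21, and hexose transporters 1 (20.0%), HXT1, of 5. Mating and pheromone genes had 2 shallower (8.0%) of 25, TEC1 and GPA1, and 0 steeper.

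The 2 references differed by a median of -0.38 (reference 1 minus reference 2) in ribosome biogenesis genes. Their median slope was -0.73 after oxidative stress, which lay between -0.87 in reference 1 and -0.48 in reference 2. The median difference was therefore 0.17 from reference 1 and -0.25 from reference 2, and 3 of 121 (2.48%) were steeper than in both. The group thus declined fast in every culture, but its direction after peroxide depended on the reference.

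**Figure D4:**
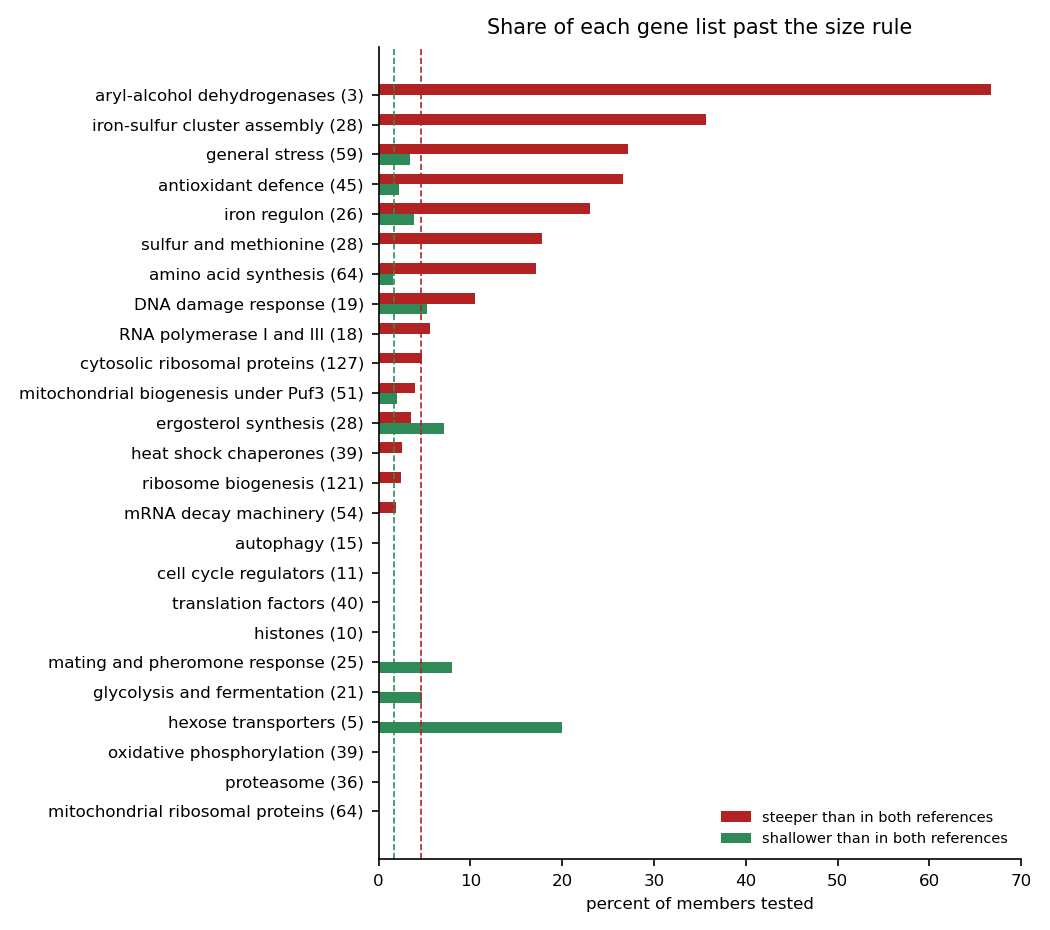
Percent of the tested members of each list (number in brackets) that were steeper or shallower than in both references by at least 0.2 log2 per 10 min. Dashed lines mark the same shares over all genes, 4.64% steeper and 1.74% shallower, and the iron-sulfur list was written after values had been seen.

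Across genes, a steeper slope went with a higher level before the shift. Of 79 genes above the floor that stood at least 1 log2 higher at time 0 after peroxide than in both references, relative to the median gene, 64 (81.0%) were steeper and 0 shallower. Of the other 3432 genes above the floor 78 (2.27%) were steeper. Of 26 genes at least 1 log2 lower, 8 (30.8%) were shallower and 0 steeper, and over 5 to 30 min, without the time 0 arrays, 3 of the 26 were shallower and 15 had a higher slope than in both references. The arrays at time 0 entered both measures in the counts over 0 to 30 min, so an error in them would move both. Over 5 to 30 min 52 of the 79 were steeper by the same rule, against 3.59% of all genes above the floor, and 69 of the 79 had a lower slope than in both references. Of 34 such genes at least 1 log2 above the floor in every culture, 26 (76.5%) were steeper.

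The relation was also read with different references for level and slope, as a description across genes that share arrays and are not independent. Among 25 genes more than 2 log2 higher than in reference 1, the median difference in slope over 5 to 30 min from reference 2 was -0.34. With the references exchanged it was -0.49 for 23 genes. For genes 1 to 2 log2 higher the medians were -0.26 and -0.30. For genes that stood more than 1 log2 lower, the 2 arrangements gave opposite signs, -0.25 for 66 genes and 0.18 for 64 genes, so no relation on that side was stable to the choice of reference.

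**Figure D5:**
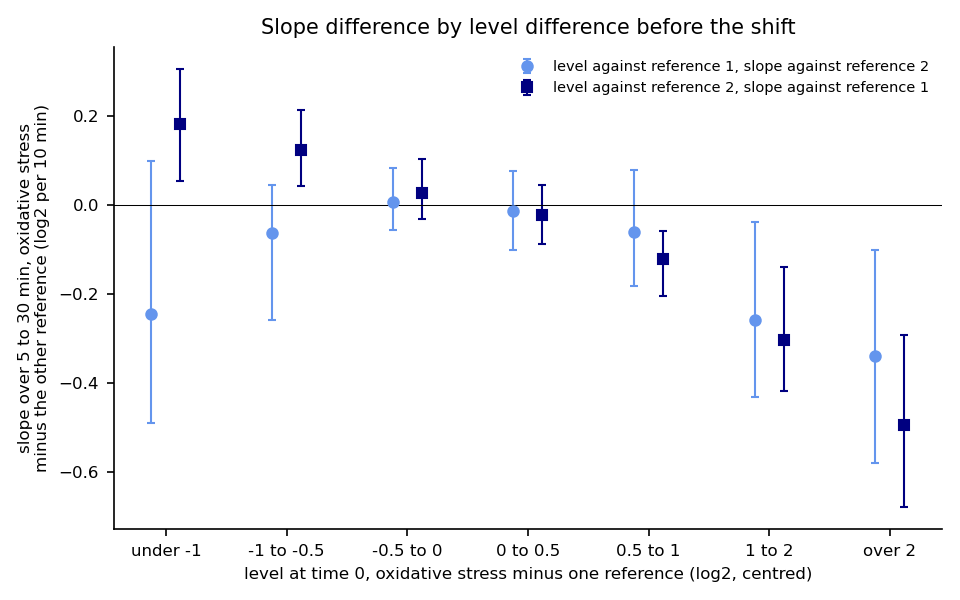
Slope difference over 5 to 30 min (oxidative stress minus one reference, log2 per 10 min) for genes binned by their level difference at time 0 from the other reference, over 3511 genes above the floor. Points are medians and bars the quartiles, and both arrangements lie below 0 in the bins from 1 upward but on opposite sides of 0 in the lowest bins.

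The slopes of these genes in the DNA damage culture are set beside those after oxidative stress. The 142 steeper genes had median differences of -0.34 and -0.36 from references 1 and 2 after oxidative stress, and of -0.03 and -0.02 after DNA damage. The 2 stresses were set against the same references, so the sets of differences are not independent. Set directly against the DNA damage culture, 102 of the 142 were steeper after oxidative stress by 0.2 or more, against 15.6% of all genes above the floor. The choice of genes with low slopes after peroxide favours this direction. The 51 shallower genes had medians of 0.28 and 0.30 after oxidative stress, and of 0.02 and 0.07 after DNA damage, and 32 lay above the DNA damage culture by 0.2 or more, against 15.1% of genes above the floor. Here too the choice of genes, with high slopes after peroxide, favours the direction found. ATR1 had a slope of -1.14 after oxidative stress and -0.15 after DNA damage, and ISU2 had -0.82 and 0.03. Members differed among themselves, and some had low slopes in both stressed cultures. NIT1 had differences of -0.81 and -0.58 from references 1 and 2 after oxidative stress, and of -0.55 and -0.31 after DNA damage. YOL029C had -0.62 and -0.59 after oxidative stress, and -0.49 and -0.46 after DNA damage. Among shallower genes IRR1 had 0.48 and 0.32 after oxidative stress, and 0.51 and 0.35 after DNA damage. Limma on cultures called 0 genes different between the 2 stresses, with 836 at an unadjusted p under 0.05, and the fit on arrays called 1439.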

How the data were processed

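Values deposited by the authors are on the log2 scale, 1 per probe set, and were made with RMA, per the submitters' processing notes. Neither the RMA version nor a joint or separate normalization is given in the sources used here. Array medians varied from 11.0 to 12.9, so arrays were not on a common median. The platform's annotation named 5498 probe sets (5449 genes) and left 402 unnamed. All 5498 identifiers matched RefSeq's table of yeast genes and 12 symbols were updated. Each gene was represented by its brightest probe set, and 61 tested genes have a probe set shared with another gene. No genome was used.

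Genes above the 30th percentile of the centred mean were tested (3898). Slopes were least-squares lines over 6 times, with the 2 arrays at time 0 averaged, and were centred on the median gene. limma 3.58.1 in R 4.3.3 (lmFit, eBayes) fitted 1 slope per culture, with Benjamini-Hochberg adjustment over all genes. Each stressed culture was taken to have the spread of the 2 references, and p-values measure only that spread. The number of arrays limits the precision. The scripts were tested on simulated data.

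Genes were named by rule: above the floor with the same sign against both references, the 15 lowest and 15 highest by the smaller of the 2 differences; at the floor, 6 and 6; up to 3 leading members of each of 24 lists; and 10 fixed genes. A gene outside the rule is said to be chosen after its values were seen. The comparison and all lists were chosen with earlier results of these data known. Alternatives covered scaling, time window, filter, floor, time 0 array, probe set, error term, size rule and each reference left out.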

Additional observations from a re-analysis of the deposited data

Results flagged for a closer look

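Named genes past the size rule in opposite directions in the 2 stresses, each against both references, are given here by the slope of oxidative stress minus that of DNA damage. The difference between the stresses was not tested beyond the fit on cultures, which called 0 genes, and the fit on arrays given above. Each stress was 1 culture. PUT4 differed by 1.51 log2 per 10 min, with a centred slope of 1.24 after oxidative stress, -0.27 after DNA damage, and 0.75 and 0.71 in references 1 and 2, but it was at the floor at time 0. GLN1, glutamine synthetase, differed by 0.98, with 0.17 after oxidative stress, -0.82 after DNA damage, and -0.24 and -0.14 in the references. PDR12 differed by 0.85, with 0.58 after oxidative stress, -0.26 after DNA damage, and 0.24 and -0.01 in the references. ERG3 differed by 0.67, TEC1 by 0.64 and ATO3 by 0.64, each shallower after oxidative stress. In the other direction FMP23 differed by -1.15, with -0.95 after oxidative stress, 0.20 after DNA damage, and -0.05 and -0.10 in the references, where it was at the floor. DDI1, a ubiquitin-related protein induced by DNA damage, differed by -0.71, with -0.09 after oxidative stress, 0.62 after DNA damage, and 0.35 and 0.34 in the references.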

How the results depend on the processing

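The 70 named genes past the size rule kept the sign of their difference in all 10 settings tried for each. Leaving out either reference could not change a sign, because these genes were past the size rule against both references. Slopes as deposited moved the difference of every gene by the same amount, which was smaller than the size rule. That setting could not change a sign either, so only the remaining settings tested it. The test on cultures called 0 genes in either direction, and gave 30 lower and 1 higher with slopes as deposited, 12 and 2 over 0 to 20 min, and 4 lower with the second time 0 array only. Array scatter as the error gave 270 and 164. Leaving out 1 reference, with array scatter as the only error since 1 culture was then left in each group, gave 209 to 242 lower and 95 to 173 higher. The steeper count of 181 became 116 as deposited, 97 with a size rule of 0.3, 81 among genes at least 1 log2 above the floor (added after seeing the data), and 269 to 392 against 1 reference. The shallower count of 68 became 131 as deposited, 226 over 0 to 20 min, 42 with a filter at the 50th percentile, 17 with a size rule of 0.3, 21 at least 1 log2 above the floor, and 176 to 227 against 1 reference. All 116 steeper genes found as deposited were among the 181. Oxidative stress against DNA damage gave 0 calls, but 83 as deposited, 219 over 0 to 20 min, 5 with the second time 0 array and 1439 with array scatter. The cause of these shifts was not tested. Medians of the antioxidant, general stress, sulfur and amino acid lists stayed below 0 in every setting, while that of the iron regulon turned to 0.03 as deposited. Settings were varied 1 at a time. Over 5 to 30 min the general stress median was -0.10 from reference 1 but 0.01 from reference 2. Those of the antioxidant, sulfur and amino acid lists were then below 0 from each reference. No paired analysis was possible because the groups compared share fewer than 2 replicate numbers. Signal near the floor limits the reference slopes of induced genes.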
